A study of Homo sapiens with 12 samples.

Results

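Mediator is the large coactivator complex through which transcription factors bound to DNA reach RNA polymerase II, and its transcripts were followed in HEK 293T cells given the compound PDP. Members were chosen by name: every gene symbol made of MED and a number, with or without a closing L, plus CCNC, CDK8 and CDK19. This gave 33 genes of the 58083 in each RNA table, each present as a single row. The cells, an established line from human embryonic kidney, express large T antigen of the virus SV40. Poly(A) RNA was sequenced from 4 groups with 2 samples each: a DMSO control taken at 3 h, and cells exposed to PDP at 1 µM, taken at 3 h, at 24 h and at 72 h. DMSO is the solvent control. PDP is known here by its code name. A second part of the series, 2 pull-down samples of annealed genomic DNA with 2 inputs, mapped where a small molecule captures G-quadruplexes, the four-stranded structures of guanine-rich DNA.

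The head and middle modules of Mediator touch the polymerase, the tail takes up signals from activators, and MED14 runs through the complex as its scaffold. A separable kinase module of MED12, MED13, cyclin C (CCNC) and the kinase CDK8 binds the core reversibly and can keep the polymerase away from it. Vertebrates carry a second copy of 3 of its parts, namely MED12L, MED13L and CDK19. The head was taken here as 7 genes, the middle as 9, the tail as 5 and the kinase module as 7, with MED14 alone. MED27, MED28, MED29 and MED30 are placed in the head or in the tail depending on the source, and these 4 were kept apart.

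Each RNA table gave 1 pooled FPKM value (a fragment count normalised for transcript length and sequencing depth) per gene and condition, so single libraries, their depth and the spread between replicates could not be seen. A gene is called here when the authors' deposited table gives it a q-value, a p-value adjusted over all tested genes, under 0.05. The standard errors (SE) are those implied by the deposited test statistic, and they need not measure the same spread as the p-values. The titles number the 2 samples of a group as bio1 and bio2 and do not name separate cultures. The p-values therefore rest only on these samples, and the spread between them may be technical. The control of the 24 h and 72 h tables was the 3 h control multiplied by 1.04 and 0.968, so the 3 comparisons share their control, and exposure to PDP and time in culture cannot be told apart at 24 h and 72 h. Of the markers of the line, VIM, NEFM, KRT8, NEFL and KRT18 ran from 259 down to 17.6 FPKM in the 3 h control, and PAX2 was at 0.896 FPKM. Among 5 markers of other cell types, PTPRC, PECAM1 and INS were at or near 0 in every condition and ALB was at 0.389 FPKM or less. COL1A1, a fibroblast collagen, was at 22.8 against 13.0 FPKM at 24 h and 23.0 against 12.2 FPKM at 72 h, without a call. Of the 6 markers of the line, 4 were called higher at 24 h, where 9.21% of all tested genes were, and 5 at 72 h, where 19.0% were. Among them, NEFM was at 87.0 against 40.6 FPKM at 24 h and at 151 against 37.8 FPKM at 72 h. The part of these shifts in the values of Mediator genes was not tested.

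All 33 genes were expressed and tested in every table. Their control levels in the 3 h table ran from 3.87 to 83.2 FPKM around a median of 20.1, so transcripts for the subunits of a single complex differed 21.5-fold. MED24, a tail subunit, was the most abundant at 83.2 FPKM, ahead of CCNC at 57.2 and the middle subunit MED4 at 47.6 FPKM. The scarcest were MED12L at 3.87, CDK19 at 6.24, MED26 at 6.34 and MED7 at 6.50 FPKM. MED26, through which Mediator recruits elongation factors, and MED7, a partner of MED21, are both middle subunits. MED21 was at 36.8 FPKM, while the middle subunits MED19 and MED31 were nearer to them, at 12.3 and 13.8 FPKM. Without values per library, no spread can be set beside the order of neighbouring genes.

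**Figure D1:**
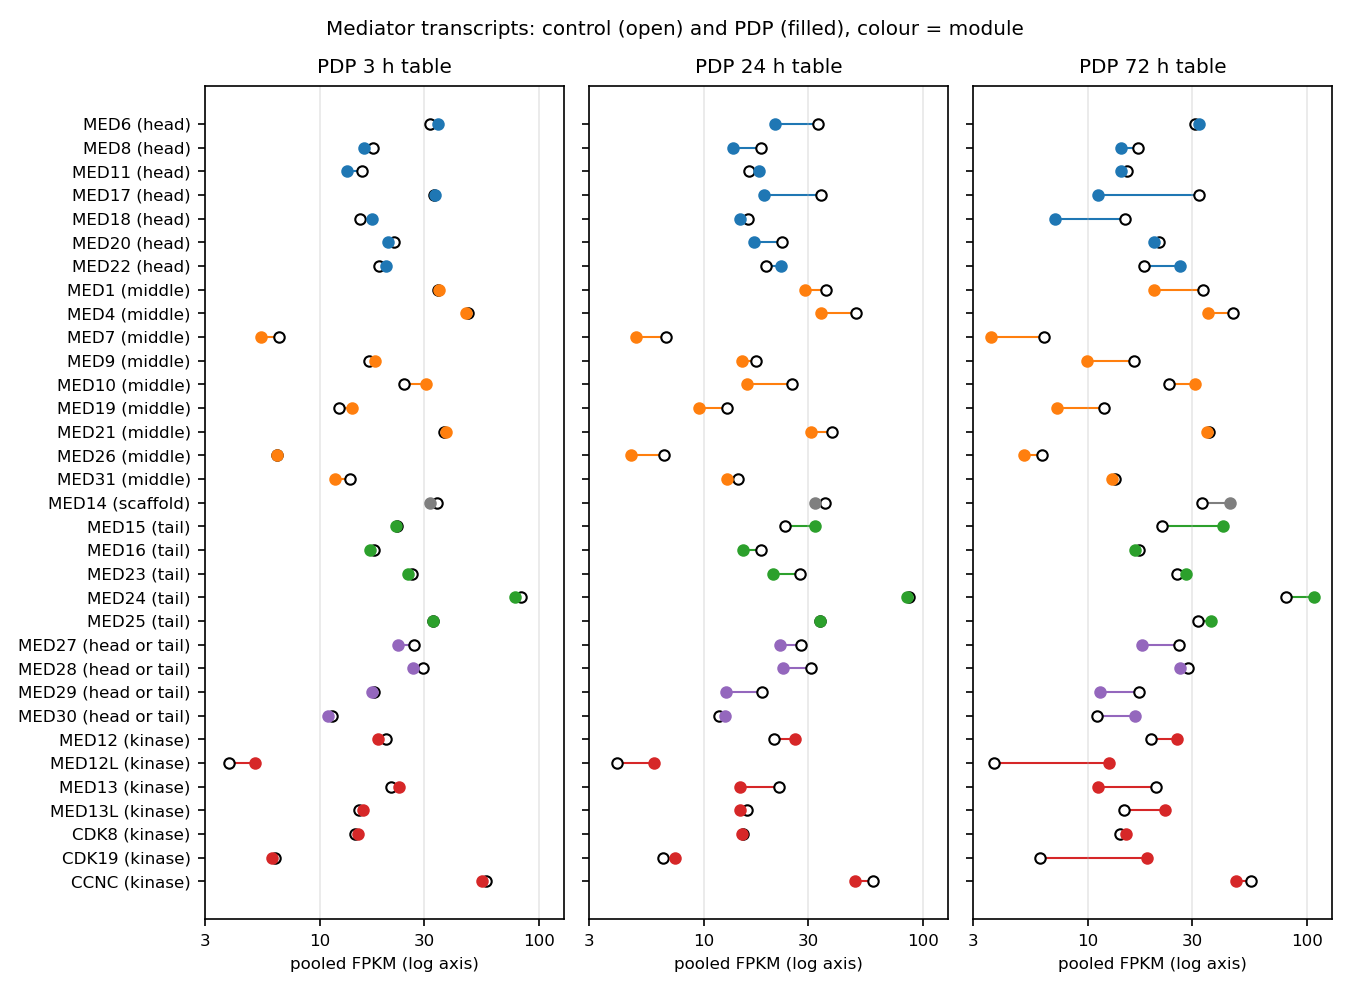
Pooled FPKM of the 33 Mediator genes on a log axis in the control (open) and with PDP (filled) in the 3 h, 24 h and 72 h tables, coloured by module. At 3 h the pairs of points nearly coincide, and at 72 h MED12L, CDK19 and MED15 lie to the right of their control while MED17, MED18 and MED13 lie to the left.

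Because the series is about G-quadruplexes, the promoters of the members were searched for guanine runs. The RefSeq table (GRCh38.p14) holds windows from 250 bases before to 50 bases after a transcription start, and 25 of the 33 genes matched, with 30 windows. The motif was 4 runs of at least 3 G (GGG) with 1 to 7 bases of any kind between runs, on either strand. It was present for 7 of the 25 genes (28%, exact 95% interval 12.1 to 49.4%), against 42.6% of 9758 genes expressed here and 27.9% of all 27305 genes of the table. With up to 12 bases between runs the share of Mediator genes was again 28%, while that of expressed genes was 59.6% and that of all genes 40.6%. The 7 genes were MED9, MED10, MED12L, MED13L, MED15, MED26 and MED31. The median GC content of the windows was 58.6% for the Mediator genes and 65.2% for expressed genes, and the part of base composition in the difference was not tested. A match describes letters and does not show that a structure forms. The following matches are those of the members with a called change, written 5′ to 3′ on the strand that carries the guanines, with the motif in capitals and the 10 bases on each side in lower case. All lie on the strand opposite to the gene and before a transcription start listed for it.
MED12L: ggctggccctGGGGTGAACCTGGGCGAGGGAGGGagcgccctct
MED15: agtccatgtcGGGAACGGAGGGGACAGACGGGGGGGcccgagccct
MED9: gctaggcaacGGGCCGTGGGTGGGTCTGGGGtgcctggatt
MED10, nearer match: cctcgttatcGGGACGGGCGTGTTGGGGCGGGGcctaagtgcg
MED10, farther match: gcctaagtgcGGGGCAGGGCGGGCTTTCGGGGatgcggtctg
The MED12L motif is at chr3:151085512-151085535 (gene on the + strand), from 152 to 129 bases before the start. The MED15 motif is at chr22:20507890-20507915 (+ strand), from 157 to 132 bases before 1 of the starts listed for that gene. The MED9 motif is at chr17:17476847-17476867 (+ strand), from 153 to 133 bases before the start. The MED10 motifs are at chr5:6378636-6378658 and chr5:6378668-6378689 (- strand), the nearer ending 89 bases before the start. These 4 genes did not move alike: MED12L and MED15 were called higher at 72 h, MED9 was called lower at 72 h, and MED10 was called lower at 24 h.

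At 3 h no Mediator gene was called. The count was 0 of 33 in the authors' deposited table, where 0.115% of all 14751 tested genes were called (0.108% higher and 0.00678% lower, and 0.0678% called with a change of 1 or more on the log2 scale), and no member had an unadjusted p under 0.05, against 1.91% of all tested genes. Log2 fold changes ran from -0.27 to 0.39, with a median of -0.03 beside -0.0036 over all expressed genes. The members at the ends of this range were MED12L, which went from 3.87 to 5.07 FPKM (0.39, SE 0.89), MED10, from 24.2 to 30.6 FPKM (0.34, SE 0.26), and MED7, from 6.50 to 5.37 FPKM (-0.27, SE 0.32). The median SE of the members was 0.31.

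At 24 h most Mediator transcripts were below the control. These are bulk samples, in which fewer cells expressing a gene and less RNA per cell cannot be told apart. Of the 33 genes, 26 had a log2 fold change under 0 (78.8%, against 52.7% of all expressed genes), and the median was -0.28 beside -0.03 over all expressed genes. Expressed genes whose control level lay within the Mediator range had a median of -0.09, and 59.0% of them were below 0. Calls were fewer. The authors' deposited table called 5 members lower (15.2%, where 8.29% of all tested genes were called lower) and 1 higher (3.03%, where 9.21% were called higher). Among expressed genes at levels within the Mediator range, 10.7% were called lower and 6.41% higher. The share called in either direction, 18.2%, was near the 17.5% of all tested genes. At an unadjusted p under 0.05 stood 12 members (36.4%), against 29.6% of all tested genes. None of the calls reached a log2 fold change of 1 in size, where 5.91% of all tested genes did. Giving both conditions the same FPKM sum adds 0.17 to every log2 fold change of this table. With it, 19 of the 33 members were under 0 and the median was -0.11. The median of all expressed genes shifts by the same amount. Relative to that median, the Mediator median was -0.25 under either scaling, and 23 of the 33 members lay below it.

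The genes called lower at 24 h came from the middle, the head, the kinase module and the 4 subunits kept apart. MED10, a middle subunit, was at 15.8 FPKM with PDP and 25.2 in the control, a called decrease (log2 fold change -0.67, SE 0.28, deposited q = 0.010). MED6, which sits where head and middle meet, fell from 33.0 to 21.0 FPKM (-0.65, SE 0.26, q = 0.0054). MED13, the subunit by which the kinase module holds on to the core, fell from 21.99 to 14.6 FPKM (-0.59, SE 0.35, q = 0.014). The 3 encode proteins of different modules. MED29 fell from 18.4 to 12.6 FPKM (-0.55, SE 0.23, q = 0.0049), and MED4, the third most abundant member, from 49.5 to 34.3 FPKM (-0.53, SE 0.23, q = 0.010). All 9 middle genes had values under the control, between -0.67 for MED10 and -0.16 for MED31, where 52.7% of all expressed genes did. Of these, 2 were called (22.2%, beside 17.5% of all tested genes). With equal FPKM sums 8 of the 9 were under the control. The only member called higher was MED15, a tail subunit that binds activators such as SREBP, which rose from 23.4 to 32.1 FPKM (0.46, SE 0.29, q = 0.043).

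Among the members not called at 24 h, MED17, the subunit around which the head is built, had the lowest ratio. Its value was 18.9 FPKM against 34.4 in the control, a log2 fold change of -0.87 with an SE of 0.99 (q = 0.38). MED8 (13.6 against 18.2 FPKM, q = 0.070) and MED20 (17.0 against 22.7 FPKM, q = 0.095), which form part of the head's movable jaw with MED18, missed the threshold. MED18 was at 14.5 against 15.9 FPKM. The tail subunits MED24 and MED25 were close to their control, at 84.8 against 86.3 FPKM and 34.0 against 34.0 FPKM.

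**Figure D2:**
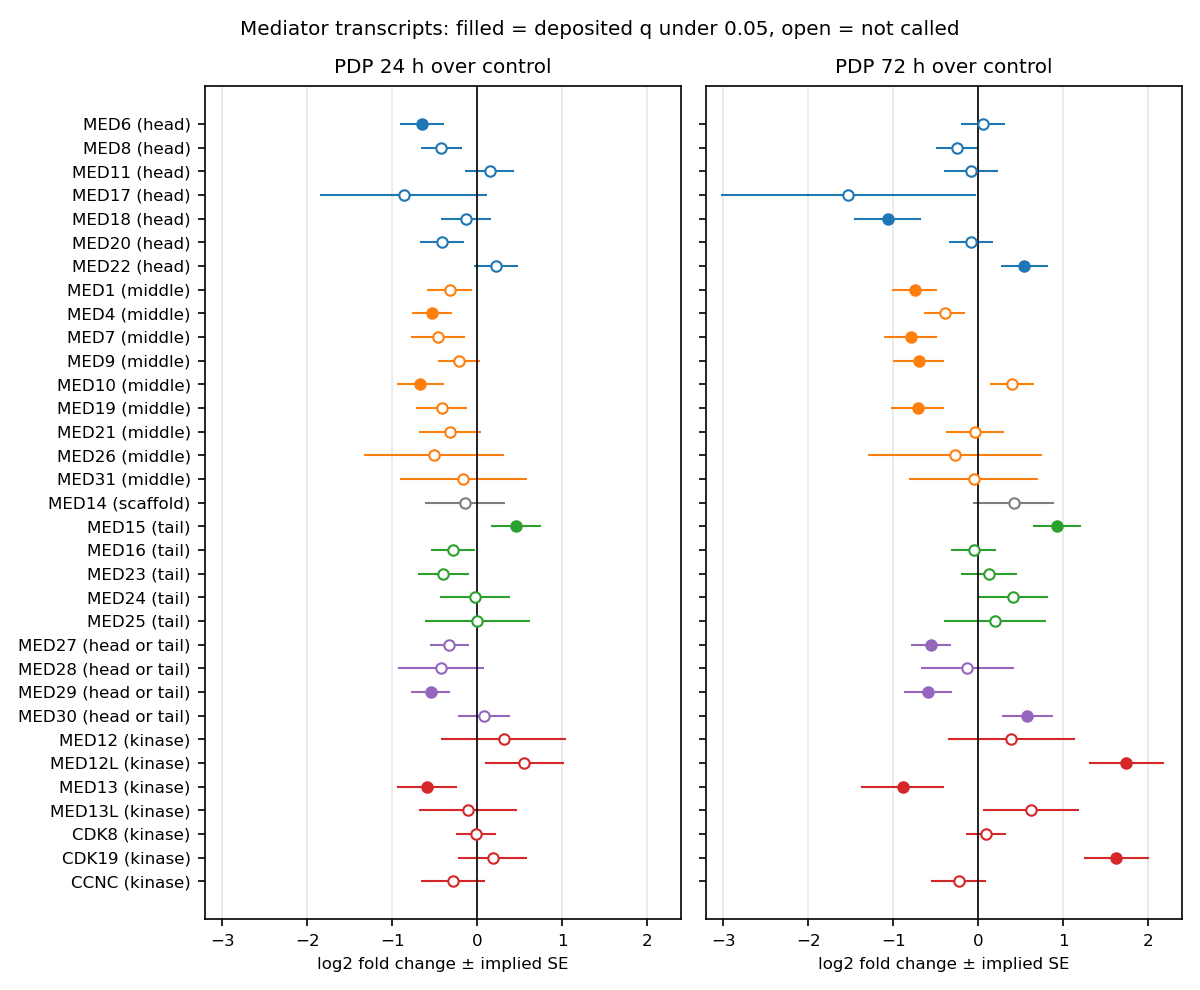
Log2 fold change of PDP over control for the 33 Mediator genes at 24 h and 72 h, with bars of 1 implied SE; filled points have a deposited q-value under 0.05 and colours mark modules. At 24 h the points lie between -0.87 for MED17 and 0.56 for MED12L with 6 filled, and at 72 h they spread from -1.53 for MED17 to 1.74 for MED12L with 13 filled.

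At 72 h the Mediator genes lay on both sides of the control. The quartiles of their log2 fold changes were -0.55 and 0.40, beside -0.34 and 0.58 over all expressed genes, a spread of like width. At 24 h they had been -0.42 and -0.01, beside -0.32 and 0.36. The median at 72 h was -0.05 beside 0.11 over all expressed genes. The authors' deposited table called 8 members lower (24.2%, where 12.8% of all tested genes were called lower) and 5 higher (15.2%, where 19.0% were called higher). In total 39.4% of members and 31.8% of all tested genes were called. At an unadjusted p under 0.05 stood 17 members (51.5%), against 40.4% of all tested genes. Calls that changed by 1 or more on the log2 scale were 3 of 33, where 15.3% of all tested genes passed. Expressed genes at levels within the Mediator range were called lower in 16.7% and higher in 17.3% of cases, with a median of 0.02.

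The middle module, 9 of the 33 members, held 4 of the 8 genes called lower at 72 h and none of those called higher. Of all tested genes, 12.8% were called lower and 19.0% higher. MED1, the subunit that nuclear receptors bind, fell from 33.6 to 19.97 FPKM (-0.75 on the log2 scale, SE 0.27, q = 0.00039). MED7 fell from 6.29 to 3.63 FPKM (-0.79, SE 0.31, q = 0.0022) and was then the scarcest Mediator transcript. MED9, which pairs with MED4, fell from 16.2 to 9.95 FPKM (-0.70, SE 0.30, q = 0.010), and MED19 from 11.9 to 7.25 FPKM (-0.71, SE 0.31, q = 0.0073). All 4 had also been under the control at 24 h without a call, with log2 fold changes of -0.32 for MED1, -0.46 for MED7, -0.22 for MED9 and -0.42 for MED19. MED10 did not keep its lower value: it stood at 30.9 FPKM against 23.5 in the control (0.40, SE 0.26, q = 0.085). MED4 was at 35.1 against 46.1 FPKM (-0.39, q = 0.062). MED21, MED26 and MED31 had log2 fold changes of -0.03, -0.27 and -0.05 and were not called.

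In the head, MED18 fell at 72 h from 14.8 to 7.10 FPKM (-1.06 on the log2 scale, SE 0.39, q = 0.0022), the largest decrease among called members. It had been at 17.2 against 15.3 FPKM at 3 h. MED20, which forms a pair with MED18 in the assembled head, had a log2 fold change of -0.08 (SE 0.26) at 72 h from a control of 21.2 FPKM, and the difference between these partners was not tested. MED22, a head subunit that pairs with MED11, rose from 18.0 to 26.2 FPKM (0.55, SE 0.28, q = 0.018), while MED11 itself was at 14.1 against 15.0 FPKM. MED6 was at 32.0 against 30.8 FPKM, so the lower value of 24 h was not seen at 72 h. MED17 had the lowest ratio of all members, 11.1 against 32.0 FPKM, a log2 fold change of -1.53 with an SE of 1.502. It was not called in the authors' deposited test (unadjusted p = 0.0236, q = 0.069), whose p-value need not rest on the spread of that SE. The deposited MED17 locus on chromosome 11, 93661638 to 93814695, holds 16 other genes, of which 4 were expressed: TAF1D, CEP295, C11orf54 and SCARNA9. At 72 h TAF1D was called higher, at 463 against 133 FPKM, while CEP295 was at 9.73 against 14.4 FPKM (q = 0.48) and C11orf54 at 14.5 against 8.72 FPKM (q = 0.50). SCARNA9 was at 7.41 against 2.49 FPKM (q = 0.62).

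Among the 4 subunits placed in the head or in the tail, 3 were called at 72 h and in both directions, where 31.8% of all tested genes were called. MED27 fell from 26.0 to 17.7 FPKM (-0.55, SE 0.23, q = 0.0045). MED29 fell from 17.1 to 11.4 FPKM (-0.59, SE 0.28, q = 0.018), close to its ratio at 24 h (-0.55). MED30, a subunit found in animals and not in yeast, rose from 11.0 to 16.4 FPKM (0.58, SE 0.30, q = 0.023). MED28 was at 26.3 against 28.6 FPKM. In the tail, MED15 rose from 21.9 to 41.6 FPKM (0.93, SE 0.28, q = 0.00039). At 3 h it had been at 22.3 against 22.6 FPKM. The other tail genes were not called: MED24 was at 107 against 80.6 FPKM (0.41, SE 0.41), MED25 at 36.3 against 31.7 FPKM, MED23, a target of the viral activator E1A, at 27.9 against 25.5 FPKM, and MED16 at 16.5 against 17.1 FPKM. MED14, the scaffold, was at 44.4 against 33.3 FPKM (0.42, SE 0.48, q = 0.31).

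The largest increases of the complex were in the kinase module. MED12L (ENSG00000144893.12, deposited locus on chromosome 3 from 151085696 to 151458709, GRCh38.p7) was at 5.07 against 3.87 FPKM at 3 h and 5.91 against 4.02 FPKM at 24 h. At 72 h it rose from 3.74 to 12.5 FPKM (1.74 on the log2 scale, SE 0.44, q = 0.00039). It was the scarcest member in the control. CDK19 (ENSG00000155111.14, chromosome 6 from 110609977 to 110815958) was at 6.03 against 6.24 FPKM at 3 h and 7.36 against 6.49 FPKM at 24 h, and rose from 6.04 to 18.7 FPKM at 72 h (1.63, SE 0.38, q = 0.00039). Neither was called at 3 h or 24 h. MED13 (ENSG00000108510.9, chromosome 17 from 61942604 to 62065282) went the other way. It fell at 72 h from 20.5 to 11.1 FPKM (-0.89, SE 0.49, q = 0.0027), after 14.6 against 21.99 FPKM at 24 h and 22.8 against 21.2 FPKM at 3 h. CDK8 was close to its control in every table, at 14.9 against 14.5, 14.9 against 15.1 and 15.0 against 14.04 FPKM. CCNC, the cyclin that both kinases use, was at 54.7 against 57.2, 48.9 against 59.4 and 47.2 against 55.3 FPKM, with no call.

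Within each of the 3 paralogue pairs of the kinase module, the ratio of the second copy to the first was higher with PDP at 72 h than in the control, a description with no test. FPKM is scaled by length, so the members of a pair can be set against each other. CDK19 was 0.430 times as abundant as CDK8 in the control and 1.246 times as abundant with PDP at 72 h, and their summed level went from 20.1 to 33.6 FPKM. MED13L was at 0.714 times the level of MED13 in the control and at 2.03 times that level at 72 h. MED13L was not itself called (22.5 against 14.6 FPKM, 0.62, SE 0.56, q = 0.11), and the sum of the pair hardly moved, from 35.1 to 33.6 FPKM. MED12L went from 16.1 to 33.0% of the summed level of MED12 and MED12L. MED12, the subunit that activates the kinase, was at 25.5 against 19.5 FPKM (0.39, SE 0.75). The log2 fold change of the second copy exceeded that of the first by 1.35 for MED12L, 1.51 for MED13L and 1.53 for CDK19. At 24 h these differences were 0.24, 0.48 and 0.19, and at 3 h 0.52, -0.06 and -0.08. Without values per library the differences within pairs could not be tested, and copies of a pair share sequence, so reads that match both are a limit on these values.

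**Figure D3:**
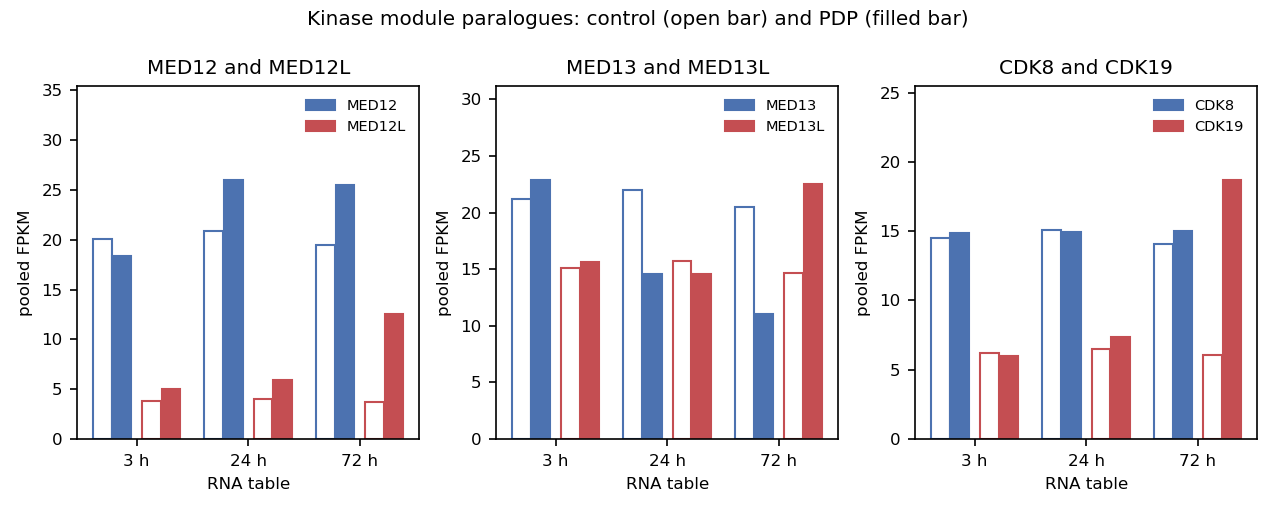
Pooled FPKM of the kinase module paralogues in each RNA table, with control as open and PDP as filled bars and no error bar because no value per library was used. At 72 h CDK19 stands above CDK8 (18.7 against 15.0 FPKM) and MED13L above MED13 (22.5 against 11.1 FPKM), the reverse of the control, while MED12L stays under MED12.

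By module, medians at 24 h were -0.41 for the head, -0.42 for the middle, -0.03 for the tail and -0.01 for the kinase module. At 72 h they were -0.09, -0.39, 0.20 and 0.39. With equal FPKM sums the 24 h medians of the tail and the kinase module became 0.14 and 0.16, while those of the head and the middle stayed under 0 (-0.25 and -0.25). Of the 26 genes outside the kinase module, 4 were called lower and 1 higher at 24 h, and 7 lower and 3 higher at 72 h. In total 19.2% of them were called at 24 h and 38.5% at 72 h, beside 17.5% and 31.8% of all tested genes. With so few genes per module these are descriptions, and no difference between modules was tested. Summed over all 33 genes, Mediator transcripts came to 782 against 793 FPKM at 3 h, 703 against 823 FPKM at 24 h and 783 against 768 FPKM at 72 h. As deposited, the sum therefore hardly differed at 72 h although its parts had moved in both directions. These sums depend on scaling. Over all genes the FPKM sum went from 698494 to 621454 at 24 h and from 651196 to 699803 at 72 h. Equal FPKM sums would add 0.17 to the log2 ratio at 24 h and -0.10 at 72 h.

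The partners of Mediator at the promoter were described from lists of RNA polymerase II subunits (12 genes), general transcription factors (31) and elongation factors linked to Mediator (15). At 3 h no gene of these lists was called in the authors' deposited table, and 0, 0 and 1 of them had an unadjusted p under 0.05. At 24 h the calls were lower in every case: 3 polymerase subunits, 5 general factors and 3 elongation factors, or 3 of 12, 5 of 31 (16.1%) and 3 of 15 genes, where 8.29% of all tested genes were called lower and 17.5% in either direction. Their medians were -0.32, -0.25 and -0.21. All 12 polymerase subunits lay under the control at 24 h, where 52.7% of all expressed genes did. With equal FPKM sums 11 of 12 did, and the share of all expressed genes at that scaling was not counted. POLR2F fell from 103 to 71.2 FPKM and POLR2K from 67.3 to 47.9 FPKM. TAF13, a TFIID subunit, fell from 42.4 to 22.8 FPKM, and HEXIM1, which holds the elongation kinase P-TEFb inactive, from 32.2 to 16.7 FPKM. The Mediator median of -0.28 lay among these 3 medians.

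At 72 h the partner lists were mixed. The polymerase list had 1 call in each direction, with POLR2A, the catalytic subunit, higher (86.9 to 134 FPKM, 0.62, although its SE was 0.78) and POLR2D lower (46.8 to 33.0 FPKM). The general factors had 3 calls each way. CDK7, the kinase of TFIIH, fell from 34.9 to 15.5 FPKM (-1.18, SE 0.46, q = 0.00039) and GTF2A1, a TFIIA subunit, from 22.9 to 13.1 FPKM. TAF13, called lower at 24 h, was again called lower, at 22.3 against 39.5 FPKM (-0.83, q = 0.00039). TAF9 rose from 58.2 to 115 FPKM. Among elongation factors 3 were called lower and none higher: MLLT1, a part of the super elongation complex, fell from 22.8 to 11.4 FPKM, CCNT1, a cyclin of P-TEFb, from 24.5 to 17.0 FPKM, and HEXIM1 from 30.04 to 22.8 FPKM. The medians were 0.08, -0.14 and 0.07, and with equal FPKM sums all 3 were under 0 (-0.03, -0.25 and -0.04). Counted in either direction, 2 of 12 polymerase subunits, 6 of 31 general factors and 3 of 15 elongation factors were called at 72 h, beside 13 of 33 Mediator genes and 31.8% of all tested genes. The differences between these lists were not tested.

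**Figure D4:**
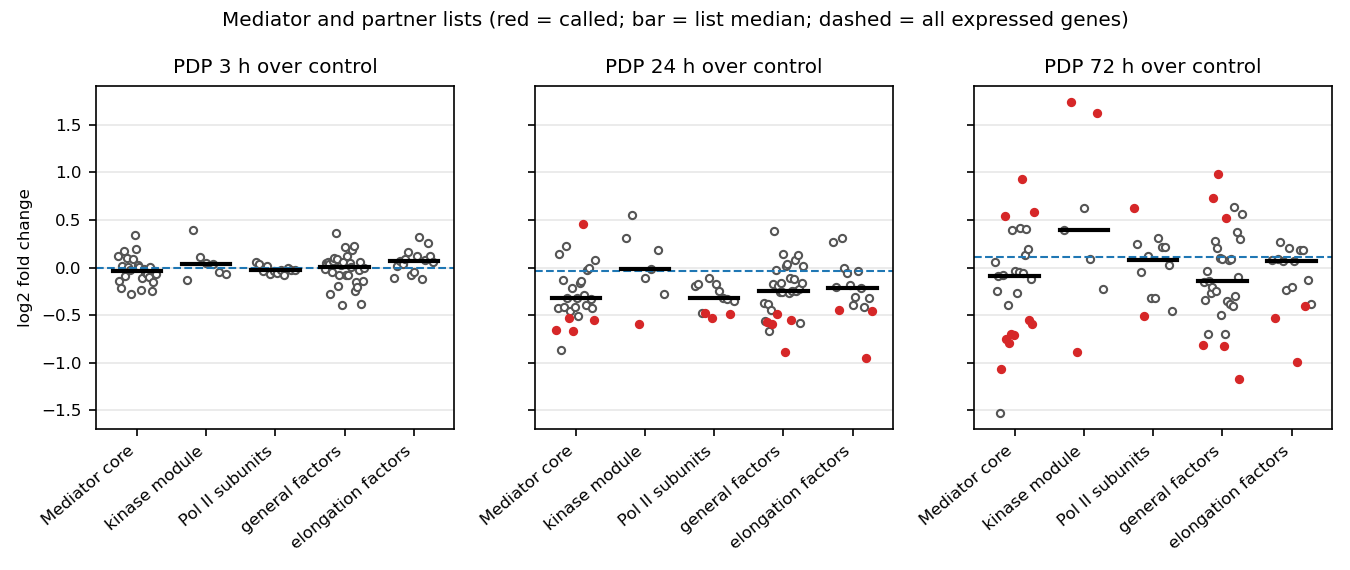
Log2 fold change of PDP over control at 3 h, 24 h and 72 h for Mediator genes outside the kinase module, the kinase module and the 3 partner lists, 1 point per gene, red where called, with the list median as a black bar and the median of all expressed genes as a dashed line. The list medians lie at or under the dashed line at 24 h except for the kinase module (-0.01), and at 72 h the kinase module spreads from -0.89 for MED13 to 1.74 for MED12L.

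The pull-down offers a readout that did not enter the choice of genes. The authors' list for the annealed DNA, purified from cells and not from the PDP-treated cultures, holds 51446 peaks with a score whose unit is not stated in the file. Of these, 62 had their centre in the deposited locus of a Mediator gene. A locus here is the interval the RNA tables give, which often spans neighbouring genes: 25 of the 33 loci held at least 1 other gene. The density over the 33 loci was 2.02 peaks per 100 kb (exact Poisson 95% interval 1.55 to 2.596, for counting error alone), beside 1.96 over the 10601 loci that held an expressed gene. At least 1 peak was present in 20 of the 33 loci (60.6%, exact 95% interval 42.1 to 77.1%), and in 55.7% of all expressed loci.

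Peaks followed locus length, with exceptions among the long loci. None of the 10 Mediator loci under 20 kb held a peak, where 16.6% of all such expressed loci did. Between 20 and 100 kb, 10 of 12 Mediator loci held at least 1, where 57.3% of all such loci did. From 100 to 400 kb, 10 of 11 did, beside 90.8% of all such loci, and longer loci were left out. These shares were not tested against each other. The MED13L locus (chromosome 12, 115953871 to 116277338) held 16 peaks, or 4.95 per 100 kb (2.83 to 8.03), with scores from 7.86 to 16.0. The MED12L locus is longer, at 373 kb, and held 2 peaks, or 0.536 per 100 kb (0.0649 to 1.94). The CDK8 locus (chromosome 13, 26254103 to 26405238) held 0 peaks in 151 kb, for which 3 counts would give 1.98 per 100 kb and the exact 95% interval ends at 2.44, and CDK19 held 4 in 206 kb. The densities of MED13L and MED12L had intervals that did not overlap, a pair chosen after its values were seen. MED24 and MED15 held the peaks of highest score in Mediator loci, 40.1 and 30.6. The loci of the genes with the largest called changes at 72 h held 0 to 4 peaks: MED12L had 2, CDK19 had 4, MED15 had 3, MED13 had 2, and MED18 had 0 in a locus of 6.97 kb. MED13L, with the most peaks, was not called at 72 h. MED27, with the next most (6), and MED1, with 4, were called lower. The other called members, MED7, MED9, MED19, MED22, MED29 and MED30, held 2 peaks or fewer. Whether peak counts went with calls was not tested.

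**Figure D5:**
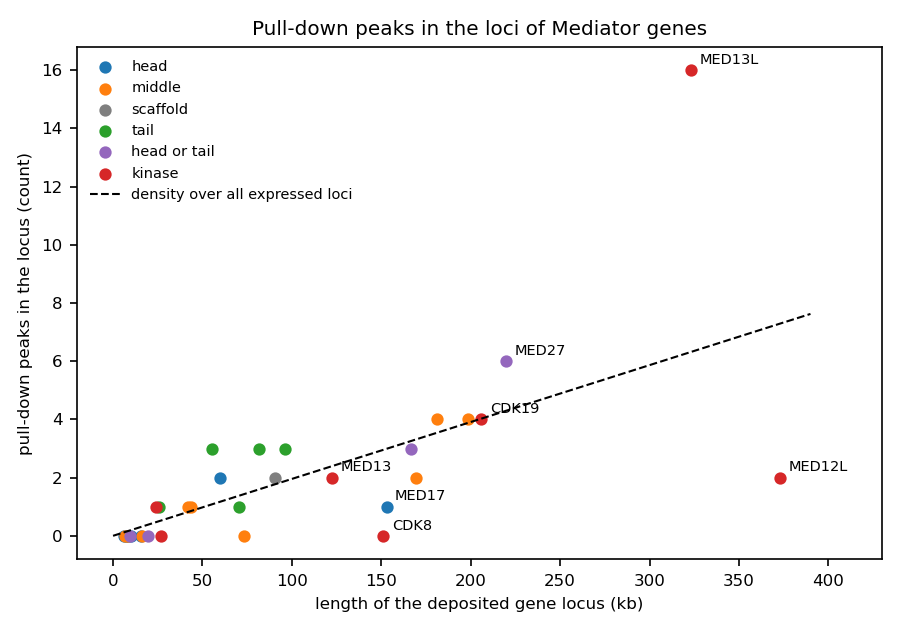
Number of pull-down peaks against the length in kb of the deposited locus of each Mediator gene, coloured by module, with the density over all loci that hold an expressed gene as a dashed line. MED13L, with 16 peaks, lies above the line, and MED12L, with 2, and CDK8, with 0, lie under it.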

How the data were processed

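Tables with the columns of a Cuffdiff gene test give, per the file headers, 1 FPKM per gene and condition, which the authors pooled over replicates. Named in the submitters' processing notes are HISAT2 2.0.5 and Cufflinks 2.2.1, HOMER 4.9.1 and Bowtie2 2.2.9, Trim Galore 0.4.4, SAMtools 1.3.1 and Picard, with GRCh38.p7; their settings are not given in the sources used here. Each p-value and q-value is the authors' own and was not recomputed. The SE was the log2 fold change divided by the deposited test statistic, a score. A further score, of unstated unit, comes with each deposited peak and ranked the peaks. Depth per library is unknown, and no model could be refitted.

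Log2 fold changes were taken as PDP over control FPKM. Expressed means a geometric mean FPKM of at least 1. A peak belonged to a locus by its centre. The named genes were all called members, the kinase module, the extremes, and up to 4 called genes per partner list and time. TAF1D, CEP295, C11orf54 and SCARNA9 were named for sharing a locus, and other members were named for comparison. Members, lists and settings were chosen with earlier results of these data known. Alternatives were a q of 0.01, a log2 size of 1, FPKM minimums, a pseudocount, the mean, other scalings, peak rules and motif loops of up to 12 bases. The level-range comparison was added after seeing the data. A list median, the motif pattern and a peak count, each written out separately, were tried on simulated or made-up inputs with known answers. The other steps were not tried this way. Scripts used SciPy 1.17.1, pandas 2.3.3 and NumPy 2.4.6 under Python 3.11.15, and Matplotlib 3.10.9 for plots.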

Additional observations from a re-analysis of the deposited data

How the results depend on the processing

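With a q under 0.01, 2 members were called at 24 h, both lower and none higher (0), and at 72 h 9 were called, 3 of them higher. The share of all tested genes with a q under 0.01 was not counted, so these counts have no background beside them. When calls also had to change by 1 or more on the log2 scale, 0 were called at 24 h in either direction (0 lower and 0 higher). At 72 h 3 were called (2 higher and 1 lower). Of all tested genes, 5.91% passed this rule at 24 h and 15.3% at 72 h. Of the 19 called values, 8 no longer passed at 0.01, and none of the 19 changed sign with a pseudocount of 1, equal FPKM sums or centring on all expressed genes. The median at 24 h was -0.11 with equal FPKM sums (a shift of 0.17 for every gene) and between -0.30 and -0.22 otherwise. At 72 h it was -0.16 with equal sums, -0.16 relative to all expressed genes and -0.031 as a mean. At 3 h it was -0.012 as a mean and turned to 0.024 with equal sums. No replicate spread was at hand to set these shifts against, and the cause was not tested. With the peaks at or above the median score, 29 peaks in 10 Mediator loci were counted. With loops of up to 12 bases the share of Mediator promoters with the motif was again 28%, but that of expressed genes went from 42.6% to 59.6%, so the gap widened. No replicate could be left out in turn. No paired analysis was possible because the RNA tables hold 1 pooled value per condition and the columns carry no replicate number. Depth sets no stated limit, since no library sizes were used.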

Other observations

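The RNA tables also list 21 pseudogenes and antisense genes named after Mediator members. Of these, 17 were listed at 0 in every condition of all 3 tables, and the highest value was 0.928 FPKM for MED28P7.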
